A study of Mus musculus with 10 samples.

Results

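Lines of a mouse acute lymphoblastic leukaemia that had grown out under dasatinib at 16 times the first dose step (dasatinib 16x, libraries A, B and C) were compared with lines that had grown out at the first step (dasatinib 1x, libraries A, B and C). The first step is a multiple of 1 of the IC90 of dasatinib. The comparison used these 6 of the 10 RNA-seq libraries of the study, fitted alone, and covered every gene with enough counts. All lines descend from 1 mouse line positive for the Philadelphia chromosome, which carries BCR-ABL1 in its p185 form and was kept in RPMI medium with serum. The dose was raised once a culture had regrown, so a higher dose step also means longer culture, and dose and time in culture cannot be told apart. The labels do not say whether dasatinib was in the medium when RNA was taken. The other 4 libraries were the parental line (A and B) and DMSO lines, which had been taken through the same steps in the solvent alone, with 1 library each (DMSO 1x and DMSO 16x). They entered no test and are given as levels.

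BCR-ABL1 is a fusion kinase that is always active and drives B-cell precursors to divide through STAT5, RAS-ERK and PI3K signalling. Dasatinib blocks the ABL kinase and the SRC family kinases. Precursor B cells also depend on the interleukin-7 receptor, which signals through JAK kinases and STAT5. A line under rising dose can change by mutation, by altered signalling or by shifts in which cells of the culture survive, and bulk RNA counts average over the cells present. In such data, fewer cells with a transcript and less of it per cell cannot be told apart.

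Total counts lay between 31695307 and 45813092 in the 6 libraries and between 29049760 and 41349084 in the drug-free ones. Values are CPM, the count of a gene scaled to the same total in each library, and log2 changes are 16x over 1x ± SE. The titles call the dasatinib libraries biological replicates, but do not say how the cultures were separated, so p-values measure the spread between these samples. The B-lineage markers fixed for the line were present, with Cd79a, Vpreb1 and Igll1 at 491 to 586 CPM in the 6 dasatinib libraries. Pax5 lay between 104 and 137 CPM, whereas Ebf1, an early B-lineage factor, was near 0 in all 6 (0.095 to 0.35 CPM). Library 1x B stood apart in structural and unpolyadenylated RNAs. Lars2, a locus whose counts often include ribosomal RNA, was at 4380 CPM there against 1080 to 1200 CPM in the other 5, and Rpph1, the RNA of RNase P, at 27.7 against 2.01 to 3.37 CPM. The summed level of replication-dependent histone genes was 172 CPM in 1x B and 56.5 to 62.9 CPM in the other 5, and none of the 42 tested histone genes was called by edgeR (1 lower at an unadjusted p under 0.05, 2 lower with DESeq2 and 0 with limma-voom).

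Of 11875 genes tested, 1222 (10.3%) were called at an adjusted p under 0.05 in edgeR's quasi-likelihood test. Of these, 683 were higher at 16x (5.75% of genes tested) and 539 were lower (4.54%). The counts given below for gene lists are to be read against these shares. The typical change was small, with a median log2 change of 0.4 among the higher genes and of -0.23 among the lower ones, against 0.003 over all genes. Changes of at least 2-fold made up 24.2% of the higher calls and 11.5% of the lower calls. The lower genes were also the more abundant ones, at a median of 78.8 CPM against 31.7 CPM for the higher genes and 30 CPM for all. Of 224 called members of the gene lists described here, 98 kept their call under every alternative, and 80 lost it only with a library left out. In every called gene the 3 libraries of one step lay beyond the 3 of the other, as they did for 31% of all genes tested. The number called was 539 without 1x A, 807 without 1x B, 553 without 1x C, 1502 without 16x A, 1491 without 16x B and 968 without 16x C. Without 1x A, 339 genes were higher and 200 lower. Without 1x B, 340 were lower, and without 1x C, 326 were higher and 227 lower. All calls shared between these fits and the one with 6 libraries had the same sign.

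**Figure D1:**
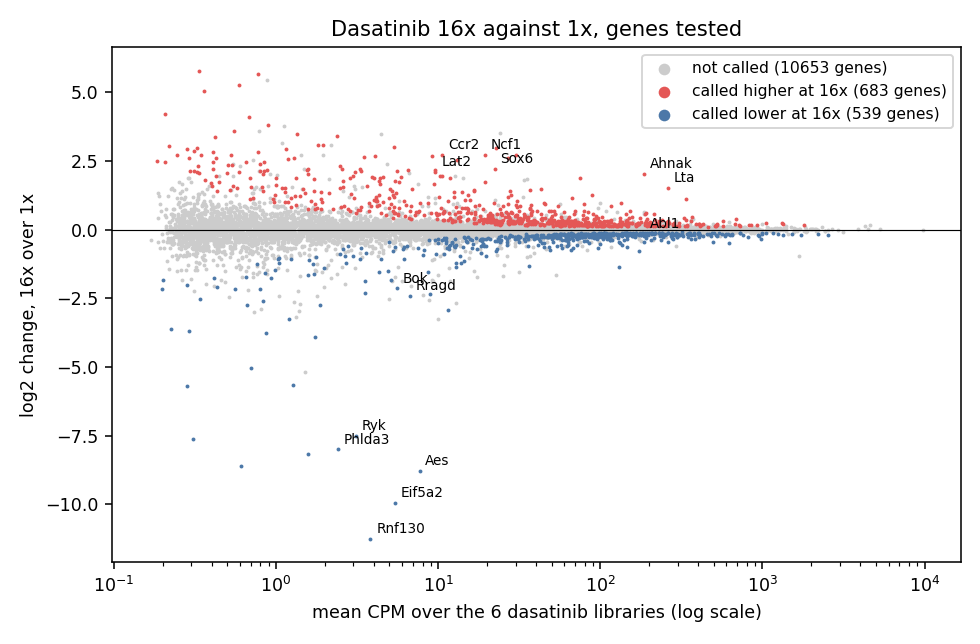
Log2 change (16x over 1x) against mean CPM over the 6 dasatinib libraries on a log scale, 1 point per gene tested. The 683 higher genes (red) and 539 lower genes (blue) mostly changed by less than 2-fold, and a few genes of low mean CPM lie far below the rest, among them Rnf130, Eif5a2 and Aes.

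The largest falls were losses of a transcript. Chosen after the values were seen, 6 genes stood at 1 CPM or more in every 1x library and at 0.1 CPM or less in every 16x library. They are Rnf130 (a membrane ubiquitin ligase), Eif5a2 (a second form of the translation factor eIF5A), Aes (a Groucho-family co-repressor), Ryk (a Wnt receptor related to the receptor tyrosine kinases), Phlda3 (a p53-induced inhibitor of AKT) and Tfpi (an inhibitor of blood coagulation). Of the 5 with a promoter in the RefSeq table, 3 have many CG pairs in the 250 bases before the start. CG pairs are the usual sites of DNA methylation in mammals, which was not measured here. They read the same on both strands. The 3 sequences and, for contrast, the CG-poor one of Tfpi are printed from GRCm38.p6, 5′ to 3′ on the gene's strand, with CG in capitals.
Rnf130 (chr11:50025081-50025330, plus strand): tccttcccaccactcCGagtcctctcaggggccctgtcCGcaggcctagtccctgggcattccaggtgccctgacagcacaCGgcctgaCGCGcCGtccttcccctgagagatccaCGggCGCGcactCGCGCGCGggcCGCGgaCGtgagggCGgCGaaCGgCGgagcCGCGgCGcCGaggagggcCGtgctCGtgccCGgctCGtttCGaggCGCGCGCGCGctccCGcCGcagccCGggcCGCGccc
Ryk (chr9:102834670-102834919, plus strand): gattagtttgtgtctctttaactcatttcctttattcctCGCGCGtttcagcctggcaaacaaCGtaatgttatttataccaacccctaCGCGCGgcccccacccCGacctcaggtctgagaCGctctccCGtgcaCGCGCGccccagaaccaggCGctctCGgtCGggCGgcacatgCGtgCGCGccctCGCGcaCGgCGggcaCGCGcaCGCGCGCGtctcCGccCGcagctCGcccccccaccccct
Eif5a2 (chr3:28781027-28781276, plus strand): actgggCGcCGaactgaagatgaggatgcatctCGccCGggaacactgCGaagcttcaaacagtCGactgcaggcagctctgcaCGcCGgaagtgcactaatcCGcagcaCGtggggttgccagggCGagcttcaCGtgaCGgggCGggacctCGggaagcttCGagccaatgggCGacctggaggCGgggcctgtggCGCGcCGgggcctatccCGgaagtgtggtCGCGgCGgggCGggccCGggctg
Tfpi (chr2:84476760-84477009, minus strand): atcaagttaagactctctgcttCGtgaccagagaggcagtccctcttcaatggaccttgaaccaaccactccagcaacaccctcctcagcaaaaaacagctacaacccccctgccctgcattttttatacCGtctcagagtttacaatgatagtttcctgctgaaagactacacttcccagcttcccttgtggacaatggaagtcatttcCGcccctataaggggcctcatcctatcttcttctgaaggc
The windows hold 39 CG pairs in Rnf130, 33 in Ryk, 27 in Eif5a2, 18 in Phlda3 and 3 in Tfpi. Among 7790 tested genes with such a window, 99.3% held at least 1 CG pair, at a median of 17. At least 39 pairs were found in 3.54% of the windows, at least 33 in 9.11%, at least 27 in 19.3%, at least 18 in 49.3% and at least 3 in 96.1%. The 6 lost genes were thus not alike in this feature.

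Rnf130 stood at 8.22, 4.48 and 10.2 CPM in 1x A, B and C and had no count in any 16x library. With 3 counts taken as the floor over the group, it was at least 326-fold lower (adjusted p = 0.00454). Its level was 18.3 and 18.8 CPM in the parental libraries, 8.57 CPM at DMSO 1x and 0.991 CPM at DMSO 16x. Eif5a2 fell from 12.6, 5.26 and 14.6 CPM to 0, 0.0244 and 0 CPM, which is 1192 counts against 1 (ratio 1380, counting interval 247 to 54400). Its adjusted p was 0.00258, and 0.0734 without 16x B, the library with that count. It too was low at DMSO 16x (2.25 CPM, against 23.6 at DMSO 1x and 39.3 and 38.1 in the parental line). Aes fell from 15.5, 10.3 and 20 CPM to 0, 0.0732 and 0.0237 CPM (adjusted p = 0.000481) and stood at 3.88 CPM at DMSO 16x.

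Ryk fell from 6.14, 2.93 and 9.48 CPM to 0, 0.0732 and 0.0237 CPM (adjusted p = 0.00425). The parental libraries held more than any dasatinib library (40.4 and 39.6 CPM), and the DMSO lines held 26.3 and 13.6 CPM. Phlda3 fell from 5.39, 2.63 and 6.35 CPM to 0, 0 and 0.0475 CPM (adjusted p = 7e-04) and was at 0.0804 CPM at DMSO 16x. Tfpi differed in the DMSO lines: it fell from 3.24, 1.53 and 4.59 CPM to 0, 0 and 0.0237 CPM under dasatinib (adjusted p = 0.000578), but stood at 17.4 CPM at DMSO 1x and 26.8 CPM at DMSO 16x.

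The 6 lost genes also shared an order within the 1x libraries that the selection did not use. In each of them C was highest, A was next and B was lowest. How many of all tested genes had this order was not counted. The 6 genes may vary together, so they are not separate observations. The level in B was 0.309 to 0.515 of that in C (median 0.387), where the median of all tested genes was 1, and the median of A over C was 0.79. One gene met the reverse condition. Runx2, a transcription factor of bone and of immature lymphoid cells, rose from 0, 0.0501 and 0.0251 CPM to 1.49, 1.12 and 1.99 CPM (3 counts against 198, ratio 57.1, counting interval 19.3 to 279, adjusted p = 0.000182). At DMSO 16x it stood at 1.13 CPM, in the range of the dasatinib 16x libraries, and at 0.068 to 0.355 CPM in the other drug-free libraries.

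**Figure D2:**
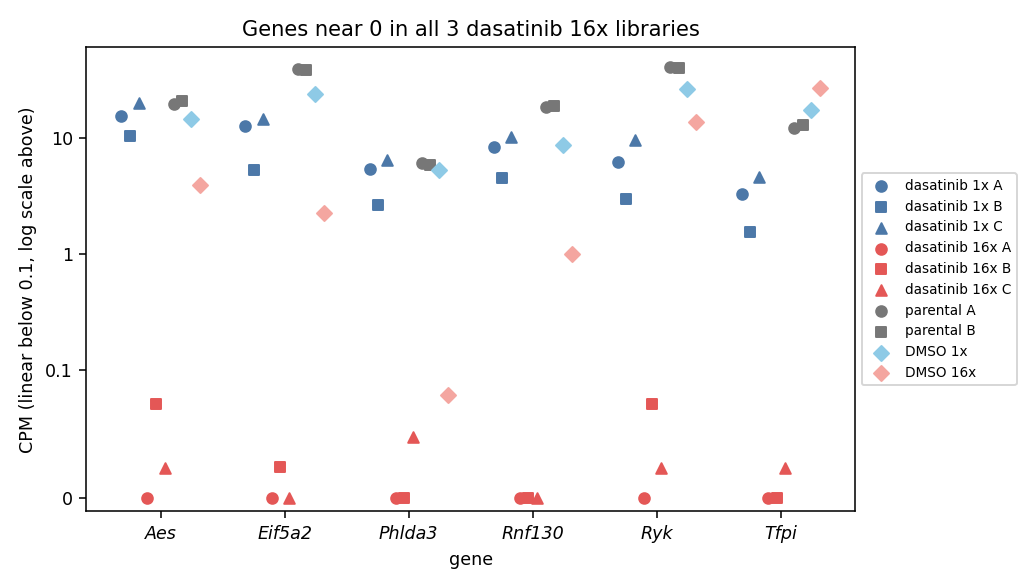
CPM of the 6 lost genes in each of the 10 libraries (axis linear below 0.1 and on a log scale above). All dasatinib 16x points lie at 0.0732 CPM or below, and 5 of the 6 genes are also lower at DMSO 16x than at DMSO 1x, with Tfpi as the exception.

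The largest rises included genes of immune cells that are low in the parental line. Zbtb32, a repressor of lymphocyte activation, stood at 7.94, 8.19 and 7.63 CPM at 1x and at 38.8, 60 and 57.6 CPM at 16x (log2 change 2.72 ± 0.2, adjusted p = 0.00142). Ncf1, a subunit of the phagocyte NADPH oxidase, rose from 4.09, 5.11 and 5.8 CPM to 45.3, 24.8 and 30.7 CPM (2.74 ± 0.29, adjusted p = 0.00732). Ccr2, the receptor of monocyte chemoattractant proteins, rose from 2.93, 2.45 and 2.99 CPM to 22, 13.4 and 19.5 CPM (2.72 ± 0.2, adjusted p = 0.000254). For all 3 genes the steps did not overlap, and DMSO 16x lay above DMSO 1x: Zbtb32 was at 50.2 and 99.4 CPM at DMSO 1x and 16x, Ncf1 at 16.1 and 36.7 CPM, and Ccr2 at 8.46 and 20.3 CPM.

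Igj, the joining chain of secreted antibodies, rose from 2.65, 2.45 and 2.38 CPM to 20.7, 15.7 and 11.5 CPM (log2 change 2.68 ± 0.22, adjusted p = 0.000486), with 3.55 and 5.2 CPM in the DMSO lines. Sox6, a transcription factor of erythroid and other lineages, rose from 7.37, 8.29 and 8.05 CPM to 33.4, 32.7 and 43.7 CPM (2.21 ± 0.12, adjusted p = 4.88e-05). Hepacam2, a cell surface protein of the immunoglobulin family, rose from 0.913, 0.926 and 1.05 CPM to 5.22, 6.22 and 6.67 CPM (2.64 ± 0.17, adjusted p = 2.45e-05). In the DMSO lines Sox6 was at 12.6 and 18.4 CPM, and Hepacam2 at 8.08 and 20 CPM, above every dasatinib 16x library. The calls of Igj, Sox6 and Hepacam2, and those of Zbtb32, Ncf1 and Ccr2, held under every alternative, including each library left out. Gpr12, Crisp1, Ly6a and Tbc1d16 rose by 2.61 to 3.02 on the log2 scale in the same test, but 16x libraries differed widely (Crisp1 64.5, 20.9 and 36 CPM against 4.82 to 5.43 at 1x). The call of Gpr12 (adjusted p = 0.0464) was lost without any one of the libraries 1x A, 1x B, 1x C and 16x A, at 0.111 to 0.164, and without the filter on low counts (0.0837). That of Crisp1 (0.0428) was lost without 1x A, 1x B, 1x C or 16x C, at 0.109 to 0.176, and that of Ly6a (0.0312) without the same 4, at 0.0852 to 0.139. Both were lost without the filter as well (0.0526 and 0.0796). That of Tbc1d16 (0.0147) was lost without 1x A, 1x B or 1x C, at 0.0695 to 0.0827.

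Among abundant genes the largest rise in CPM was that of Lta. Lta encodes lymphotoxin alpha, a secreted member of the TNF family that lymphocytes use to signal to stroma. It stood at 131, 140 and 133 CPM at 1x and at 443, 351 and 367 CPM at 16x (log2 change 1.53 ± 0.09, adjusted p = 0.000556). The parental libraries held 130 and 136 CPM, close to the 1x range, and the DMSO lines 191 and 275 CPM. Ahnak, a very large scaffold protein under the cell membrane, rose from 69, 66.4 and 82.1 CPM to 259, 323 and 313 CPM (2.04 ± 0.13, adjusted p = 0.000984). It was at 98.9 and 213 CPM in the DMSO lines. Lat2, an adaptor of B-cell and mast-cell receptor signalling that SYK and SRC family kinases phosphorylate, rose from 3.72, 3.73 and 3.46 CPM to 14.8, 15.3 and 16.6 CPM (2.1 ± 0.1, adjusted p = 3.8e-06). The DMSO lines held more of it than the dasatinib lines at each step, at 18.4 and 46.7 CPM.

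The larger falls among genes that stayed detectable were spread over several functions. Rragd, a GTPase that helps amino acids to activate mTORC1, fell from 11.7, 10.5 and 11.3 CPM to 2.03, 2.41 and 1.88 CPM (log2 change -2.4 ± 0.13, adjusted p = 1.07e-05). Cand2, a regulator of cullin ubiquitin ligases, fell from 8.09, 8.04 and 7.98 CPM to 2.36, 2.07 and 2.28 CPM (-1.84 ± 0.12, adjusted p = 2.48e-05), and Nkd2, an inhibitor of Wnt signalling, from 6.36, 5.08 and 5.17 CPM to 1.79, 1.1 and 1.69 CPM (-1.85 ± 0.2, adjusted p = 0.000481). Each of these was also lower at DMSO 16x than at DMSO 1x: Rragd was at 1.82 against 9.2 CPM, Cand2 at 4.07 against 7.05 CPM and Nkd2 at 1.71 against 7.86 CPM. Slamf7 and Megf10 had log2 changes of -2.34 and -2.92 (adjusted p = 0.042 and 0.0234). The call of Slamf7 was lost without 1x A, 1x B, 1x C or 16x A, at 0.108 to 0.132, and without the filter on low counts (0.0755). That of Megf10 was lost without 1x A, 1x C or 16x C, at 0.0847 to 0.0913.

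Several abundant transcripts fell by little but evenly. Cplx2, a complexin of vesicle fusion, went from 743, 723 and 722 CPM to 525, 530 and 491 CPM (log2 change -0.5 ± 0.04, adjusted p = 4.52e-05). Pde2a, a phosphodiesterase of cyclic nucleotides, went from 1110, 1090 and 1090 CPM to 876, 861 and 851 CPM (-0.35 ± 0.03, adjusted p = 0.000119). Both DMSO lines lay above the dasatinib 16x range for these genes, with Cplx2 at 660 and 609 CPM and Pde2a at 1200 and 1100 CPM. Hmgb1, a chromatin protein that also bends DNA for the RAG recombinase, fell by 0.19 and its relative Hmgb2 by 0.25 on the log2 scale (adjusted p = 0.00419 and 0.000763). At DMSO 16x, Hmgb1 lay below the dasatinib 16x range (1370 against 1570 to 1660 CPM) and Hmgb2 above it (894 against 731 to 759 CPM).

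Genes of DNA replication were the list with the largest share of lower calls. Of 54 tested S phase genes, 28 fell (51.9%, against 4.54% of all genes tested) and 1 rose, at a median log2 change of -0.13. Among the lower ones were Mcm2 to Mcm7, which form the replicative helicase, Pcna, the sliding clamp of DNA polymerase, the ligase Lig1 and the polymerase subunits Pola1, Pola2, Pold1, Pold3 and Pole. Mcm3, Mcm7, Pcna and Lig1 kept their calls under every alternative. Mcm4, Mcm5, Mcm6 and the 5 polymerase subunits lost theirs at least without 1x A and without 1x C, and Mcm2 without any one of the 6 libraries. Pcna stood at 693, 705 and 688 CPM at 1x and at 616, 610 and 607 CPM at 16x (-0.19 ± 0.03, adjusted p = 0.00304). E2f2, an activator of replication genes, went from 204, 218 and 212 CPM to 170, 180 and 169 CPM (-0.29 ± 0.04, adjusted p = 0.0011). The exception was Pole2, a subunit of polymerase epsilon, at 43.6, 45.4 and 44.9 CPM and then 51.7, 59.6 and 56.4 CPM (0.32 ± 0.06, adjusted p = 0.00502). Pole2 was at 87.1 CPM in DMSO 1x and 200 CPM in DMSO 16x. The number of lower S phase genes was 7 without 1x A, 15 without 1x B, 10 without 1x C, 28 without 16x A, 27 without 16x B and 19 without 16x C, while the median stayed between -0.14 and -0.12.

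Of 55 tested genes of G2 and mitosis, 19 fell (34.5%, against 4.54% of all genes tested) and Nek2, a centrosome kinase, rose, at a median of -0.1. The mitotic kinesin Kif4 stood at 126, 124 and 120 CPM at 1x and at 102, 110 and 104 CPM at 16x (log2 change -0.23 ± 0.04, adjusted p = 0.00502). Ncapd2, a condensin subunit, went from 570, 560 and 570 CPM to 487, 504 and 473 CPM (-0.22 ± 0.03, adjusted p = 0.00269). Cdc25b, the phosphatase that starts mitosis, went from 130, 125 and 127 CPM to 101, 107 and 101 CPM (-0.31 ± 0.04, adjusted p = 0.000756). Without 1x A or without 1x C, 6 of the list fell. The call of Nek2 (adjusted p = 0.0351) was lost without 1x A, 1x B, 1x C or 16x B.

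The DMSO lines gave no lower sums at the later step. The summed level of the S phase list was 10700 to 10800 CPM at 1x and 9810 to 9890 CPM at 16x, against 10800 and 10700 CPM in the parental libraries, 11000 CPM at DMSO 1x and 11100 CPM at DMSO 16x. The G2 list summed to 13400 to 13800 CPM at 1x, 12200 to 12700 CPM at 16x and 13600 to 13900 CPM in the 4 drug-free libraries. Dose steps did not overlap in either sum. Of 30 tested genes of DNA repair, 6 fell (20%, against 4.54% of all genes tested), at a median of -0.07. They included H2afx, the histone variant that marks DNA breaks, at 231, 230 and 240 CPM and then 181, 175 and 181 CPM (log2 change -0.39 ± 0.03, adjusted p = 0.000113), and the mismatch repair gene Msh6. The count in this list was 2 without 1x A, 3 without 1x B, 2 without 1x C and 3 without 16x C. Of the enzymes of DNA methylation and chromatin, 4 of 39 fell (10.3%, against 4.54% of all genes tested), at a median of -0.03. They were the maintenance methyltransferase Dnmt1, its partners Uhrf1 and Uhrf2, and the Polycomb protein Cbx2. Without 16x A or 16x B, 6 of the list fell, and without 1x C, 3 did, Dnmt1 (0.0518) being lost.

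The regulators of G1 split. Of 26 tested, 4 rose and 6 fell (15.4% and 23.1%, against 5.75% and 4.54% of all genes tested). Ccnd1 and Ccnd2, which are among the D-type cyclins that open the cell cycle, both rose: Ccnd2 from 587, 616 and 580 CPM to 741, 800 and 798 CPM (log2 change 0.39 ± 0.04, adjusted p = 0.000319), and Ccnd1 from 3.15, 3.53 and 3.54 CPM to 22.1, 13.4 and 11.2 CPM (2.19 ± 0.28, adjusted p = 0.00617). Cdkn1a (p21) and Cdkn2a (p16 and p19ARF), which arrest it, rose as well, by 0.44 ± 0.09 and 0.34 ± 0.08 (adjusted p = 0.0246 and 0.0257). Both calls were lost without 1x A, 1x B or 1x C, and that of Cdkn1a also without 16x B (0.0684) and without the filter on low counts (0.0699). Skp2 fell by 0.22 on the log2 scale and kept its call throughout, Cdk2, Rbl1, E2f7 and Cdkn2c fell by 0.14 to 0.27 and lost theirs without at least 1 library, and Btg1, an anti-proliferative gene often deleted in this leukaemia, fell by 0.54 ± 0.06 (adjusted p = 0.000436). The counts were 2 higher and 3 lower without 1x A, without 1x B and without 1x C. In the DMSO lines Ccnd1 stood at 31.7 and 79.9 CPM, above the dasatinib lines at each step.

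**Figure D3:**
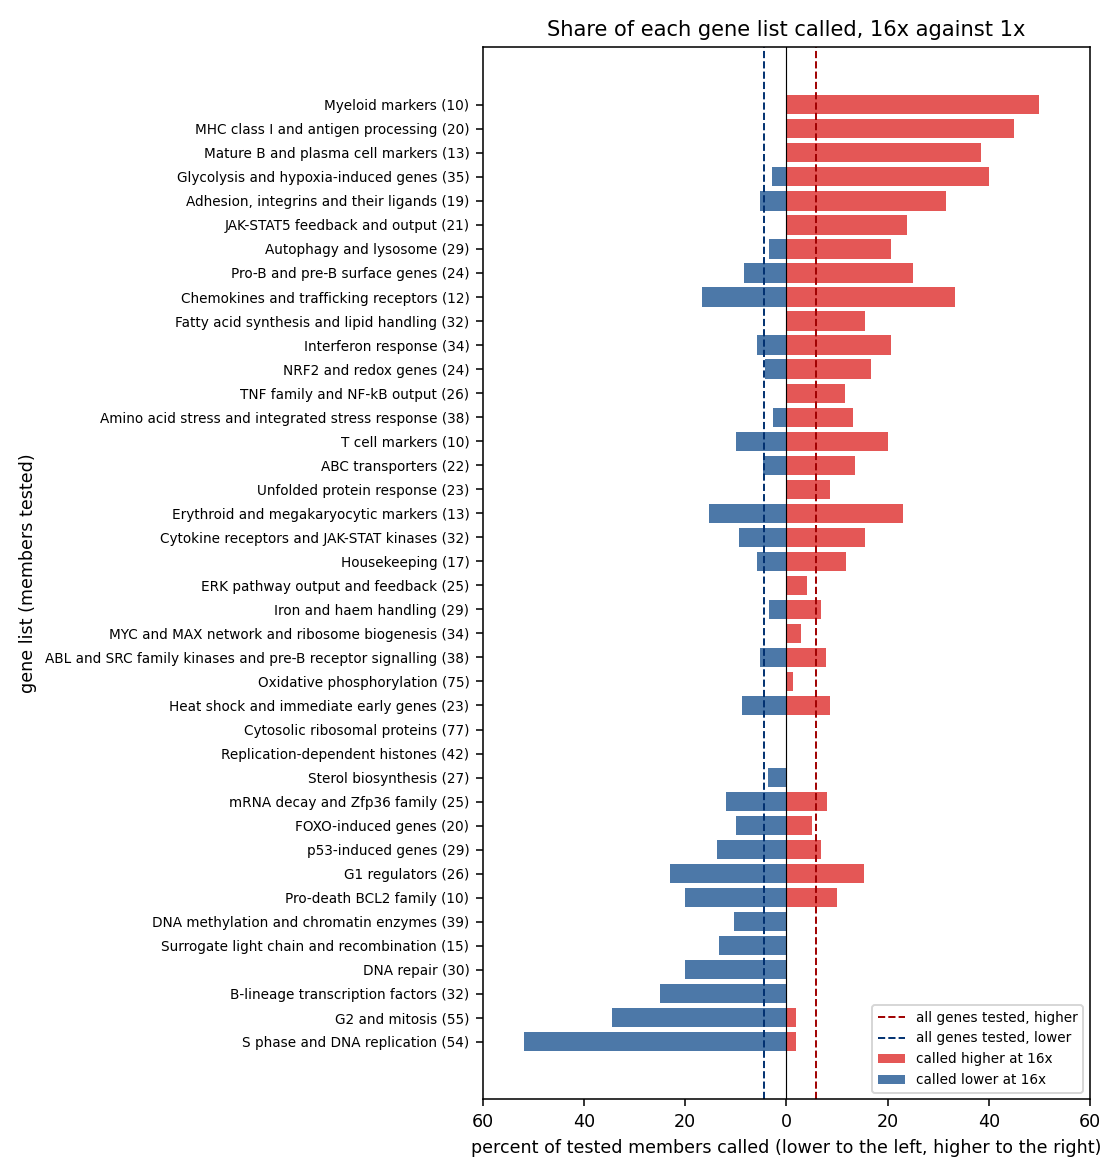
Percent of the tested members of each gene list called higher (red, to the right) and lower (blue, to the left) at 16x, for lists with at least 10 tested members, with the shares over all genes tested as dashed lines (5.75% and 4.54%). S phase genes lie at the bottom with 28 of 54 lower. Myeloid markers (5 of 10 higher) lie at the top, with MHC class I (9 of 20 higher) and glycolysis (14 of 35 higher) near them.

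Part of the genes of glycolysis and the hypoxia response rose by small amounts. Of 35 tested, 14 rose (40%, against 5.75% of all genes tested) and 1 fell, at a median log2 change of 0.17. They covered most steps from uptake to lactate: the glucose transporter Slc2a1, hexokinase Hk2, Gpi1, Pfkl, Pfkp, Aldoa, Pgk1, Pgam1 and Ldha, with Pdk1, which keeps pyruvate out of mitochondria. Slc2a1, Pfkp, Aldoa and Pgam1 kept their calls under every alternative. Gpi1 lost its call without any one of the 6 libraries, Hk2 without 1x A or 1x C, Pgk1 without 1x A, 1x C or 16x A, and Pfkl and Pdk1 without 1x C. Aldoa stood at 1220, 1280 and 1230 CPM at 1x and at 1430, 1450 and 1420 CPM at 16x (0.2 ± 0.03, adjusted p = 0.00286). Pgam1 went from 242, 247 and 238 CPM to 282, 298 and 290 CPM (0.26 ± 0.03, adjusted p = 0.00103). The largest rises of the list were in the hypoxia-induced genes Bhlhe40 (0.58 ± 0.09, adjusted p = 0.00533) and Ero1l (0.57 ± 0.09, adjusted p = 0.0139, lost without 1x A, 1x B, 1x C or 16x A, at 0.0519 to 0.0694). Slc16a1, which exports lactate, fell from 517, 510 and 526 CPM to 433, 449 and 452 CPM (-0.22 ± 0.03, adjusted p = 0.00193). The summed level was 11900 to 12300 CPM at 1x, 12800 to 13600 CPM at 16x, 10300 and 10200 CPM in the parental libraries, and 13300 and 13400 CPM in the DMSO lines. Without 1x A, 9 genes rose and without 1x C, 7, with medians of 0.17 and 0.16. The call of Ldha (adjusted p = 0.0269) was lost without 1x A (0.113) and without 1x C (0.151).

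Of 20 tested MHC class I and antigen processing genes, 9 rose (45%, against 5.75% of all genes tested). All 20 had a positive log2 change, at a median of 0.28 against 0.003 over all genes. Nlrc5, the transactivator of class I genes, stood at 30.9, 30 and 33.7 CPM at 1x and at 59.3, 66.5 and 53.3 CPM at 16x (0.92 ± 0.08, adjusted p = 0.00041). The class I heavy chains H2-K1 and H2-D1 rose by 0.93 ± 0.11 and 0.86 ± 0.11 (adjusted p = 0.00683 and 0.00925, the latter 0.0538 without 1x C), B2m, their light chain, by 0.37 ± 0.06 (adjusted p = 0.00566) and Tap1, the peptide transporter, by 0.54 ± 0.05 (adjusted p = 0.000228). The heavy chains belong to a family of close copies, so reads may be split between them. The count was 7 to 10 whichever library was left out. For H2-K1 the DMSO lines stood higher than the dasatinib lines, at 147 and 277 CPM against 50.7, 58.2 and 55.4 CPM at 1x and 115, 110 and 87.8 CPM at 16x.

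Of 6 tested MHC class II genes 3 rose (50%, against 5.75% of all genes tested), at a median of 1. Cd74, the invariant chain that guides class II molecules, went from 22, 24.6 and 20.8 CPM to 72.4, 61.2 and 57.2 CPM (log2 change 1.5 ± 0.1, adjusted p = 0.000197). It was at 28.1 and 35.7 CPM in the DMSO lines. H2-DMb2 and H2-DMa, which load peptides on class II, rose by 1.77 ± 0.21 and 1.17 ± 0.27 (adjusted p = 0.000757 and 0.0212) from levels near 1 CPM, and H2-DMa lost its call without 1x B, 1x C or 16x C (0.0788 to 0.11). Without 1x B, 1x C or 16x C, 2 of the list rose, and without 16x B, 5 did. Ctss, the cathepsin that trims the invariant chain, rose from 42, 42.9 and 41.3 CPM to 68, 61 and 60.8 CPM (0.59 ± 0.05, adjusted p = 0.000138).

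Some interferon-response genes rose from very low levels. Of 34 tested, 7 rose and 2 fell (20.6% and 5.88%, against 5.75% and 4.54% of all genes tested), at a median of 0.23. Oas3, an antiviral sensor, went from 0.126, 0.15 and 0.125 CPM to 0.962, 1 and 0.784 CPM (log2 change 2.74 ± 0.33, adjusted p = 0.000757), and Ifit1, Ifit3 and Oasl2 were likewise at 1.07 CPM or less in every dasatinib library at both steps. Oas3, with 15 counts over the 1x libraries, and Ifit1, at 0.025 to 0.125 CPM there, passed the filter on low counts through the 16x libraries alone. Their rises are thus no support for the list. The call of Ifit1 was lost without 1x A or 1x B and with DESeq2, that of Oasl2 without 1x A or 1x C, and that of Ifit3 with DESeq2 and without any one library other than 16x B. The more abundant Ifit2 fell from 33.3, 33.4 and 32.9 CPM to 27.4, 25.6 and 25.2 CPM (-0.35 ± 0.05, adjusted p = 0.00247). The summed level was 612 to 640 CPM at 1x and 664 to 691 CPM at 16x, below the 694 to 797 CPM of the drug-free libraries. The count of higher genes was 2 without 1x A, 3 without 1x C and 4 without 16x C. DESeq2 called 4.

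**Figure D4:**
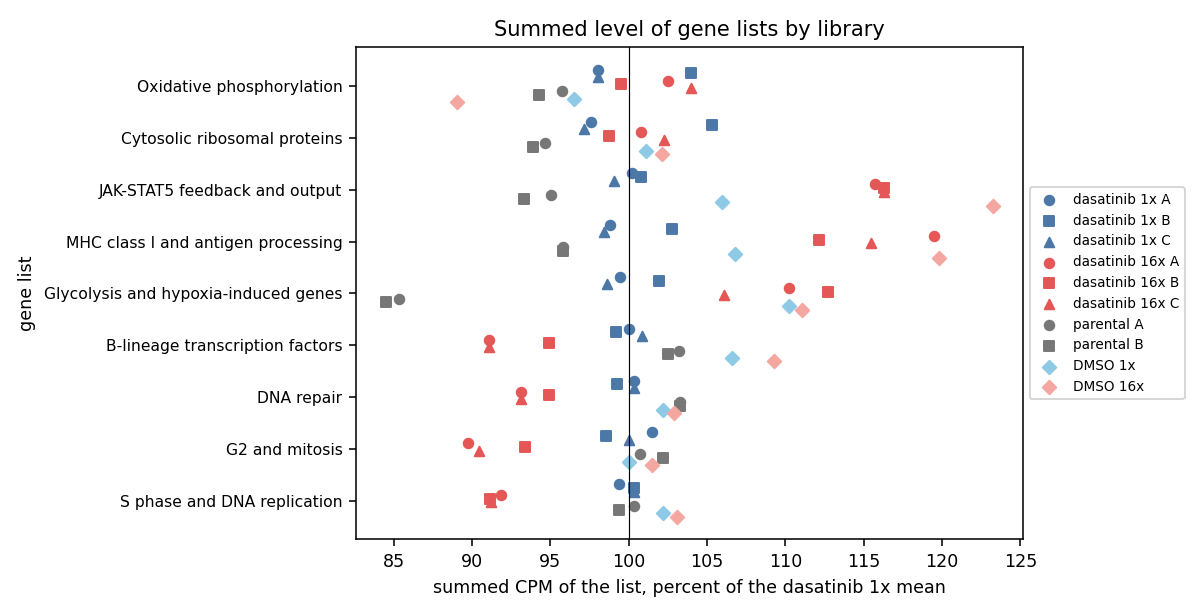
Summed CPM of 9 gene lists in each of the 10 libraries, as percent of the mean of the 3 dasatinib 1x libraries. The 3 dasatinib 16x libraries lie below all 3 1x libraries for S phase, G2 and mitosis, DNA repair and B-lineage factors and above them for glycolysis, MHC class I and JAK-STAT5 genes, and they overlap them for ribosomal protein and oxidative phosphorylation genes.

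The transcription factors of the B lineage fell in part. Of 32 tested, 8 fell (25%, against 4.54% of all genes tested), at a median of -0.08. At an unadjusted p under 0.05, 4 rose, but none did after adjustment with edgeR or limma-voom (3 with DESeq2). Lef1, a partner of Wnt signalling in pro-B cells, stood at 116, 115 and 122 CPM at 1x and at 83.5, 79.4 and 81.3 CPM at 16x (-0.53 ± 0.04, adjusted p = 4.58e-05). Myb, required for early B cells and for their interleukin-7 response, went from 419, 395 and 397 CPM to 311, 339 and 312 CPM (-0.33 ± 0.04, adjusted p = 0.000822). Among the called genes Ets1 had the largest fall (-0.68 ± 0.13, adjusted p = 0.0279), but its call was lost without 1x A, 1x B, 1x C or 16x C (0.091 to 0.107) and without the filter on low counts (0.0766). Ikzf3 (Aiolos), Runx1 and Foxp1 fell by 0.19 to 0.29 and kept their calls, while Tcf12 and Zeb2 lost theirs without those same 4 libraries. The count was 5 without 1x A, 1x B, 1x C or 16x C, and 13 without 16x B. In the DMSO lines Lef1 was at 99.7 and 63.2 CPM and Myb at 391 and 322 CPM, lower at the later step as well, whereas Ikzf3 was at 157 and 196 CPM. Rag1 and Rag2, which rearrange antigen receptor genes, were lower at 16x in every library (Rag1 21.3, 16.5 and 17.6 CPM against 8.61, 3.71 and 2.97 CPM) but did not pass the test (log2 change -1.85 ± 0.46 and -1.85 ± 0.64, adjusted p = 0.085 and 0.171). Rag1 stood at 73.6 and 75.9 CPM in the parental libraries.

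Il7r, the alpha chain of the interleukin-7 receptor, fell from 236, 213 and 211 CPM to 132, 134 and 117 CPM (log2 change -0.79 ± 0.06, adjusted p = 0.000256). The parental libraries held 216 and 218 CPM, and the DMSO lines 167 and 78.4 CPM, so the DMSO 16x library lay below every dasatinib 16x library. Other cytokine receptors moved in both directions. Csf2rb2 and Csf2rb, the beta chains for interleukin-3 and GM-CSF, rose by 0.81 ± 0.08 and 0.45 ± 0.06 (adjusted p = 0.000256 and 0.00409). These are close copies whose reads may be split. Csf2rb2 went from 22.9, 24.2 and 20 CPM to 36, 40.6 and 40.6 CPM and was at 20.1 and 16.4 CPM in the DMSO lines. Il4ra, the receptor of interleukin-4, rose by 0.43 ± 0.1 (adjusted p = 0.0297, lost without 1x A, 1x B, 1x C or 16x B, at 0.0584 to 0.136). The interferon receptor chain Ifnar1 fell by 0.21 ± 0.03 (adjusted p = 0.00413), as did Tgfbr1, the TGF-beta receptor kinase, by 0.26 ± 0.06 (adjusted p = 0.0153, lost without 1x A or 1x C). Il3ra and Csf2ra, the alpha chains that pair with the beta chains above, were not called (-0.81 ± 0.25 and -0.31 ± 0.11, adjusted p = 0.0749 and 0.114). Of the 32 cytokine receptor and JAK-STAT genes tested, 5 rose and 3 fell (15.6% and 9.38%, against 5.75% and 4.54% of all genes tested). The count of higher genes was 3 without 1x A or without 1x B. Without 16x A, 8 fell.

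Of 21 tested feedback and output genes of STAT5, 5 rose (23.8%, against 5.75% of all genes tested), at a median of 0.1. None was called lower with edgeR, DESeq2 or limma-voom, and limma-voom called 4 higher. At an unadjusted p under 0.05, 9 rose and 0 fell. Socs1, which shuts off JAK kinases, stood at 11.7, 13 and 12.5 CPM at 1x and at 24, 22.7 and 23.1 CPM at 16x (log2 change 0.91 ± 0.07, adjusted p = 4.64e-05). Cish, another STAT5-induced inhibitor, went from 42, 39.7 and 37.9 CPM to 72.2, 54.4 and 63.2 CPM (0.67 ± 0.1, adjusted p = 0.00853, 0.0535 without 1x B and 0.0518 without 1x C). The kinase Pim1, the cytokine Osm and Ccnd2 completed the group. Pim1 and Osm lost their calls without 1x A, 1x B, 1x C or 16x C, Osm also without 16x A, with limma-voom (0.0614) and without robust estimation (0.0502), and Pim1 without the filter (0.0569). In the 4 drug-free libraries Socs1 lay between 13.5 and 15.4 CPM and Cish between 33.5 and 37 CPM, below every dasatinib 16x library. Ccnd2 stood at 921 CPM in DMSO 16x, above all of them, and the list summed to 2010 to 2020 CPM at dasatinib 16x and 2140 CPM at DMSO 16x. The count was 3 without 1x A, 2 without 1x B, 2 without 1x C and 3 without 16x C. Without 16x A, 4 of the list rose and 1 fell.

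Abl1, whose protein dasatinib binds, was slightly lower at 16x, at 197, 200 and 195 CPM and then 178, 179 and 175 CPM (log2 change -0.15 ± 0.03, adjusted p = 0.00936, and 0.0517 without 1x A). Bcr, the fusion partner, stood at 96.6, 100 and 92 CPM and then 77.6, 86.2 and 85.2 CPM (-0.21 ± 0.05, adjusted p = 0.0212, 0.0984 without 1x A and 0.0886 without 1x B). Reads of the fusion and of the normal genes cannot be told apart in these counts. Abl1 was at 202 and 198 CPM in the parental libraries, 196 CPM at DMSO 1x and 177 CPM at DMSO 16x, so the level at DMSO 16x lay within the dasatinib 16x range. Of the 38 ABL and SRC family kinase and pre-B receptor signalling genes, 3 rose and 2 fell (7.89% and 5.26%, near the 5.75% and 4.54% of all genes tested). The rises were in Lat2, in the phosphatase Ptpn6 (SHP-1), which went from 204, 218 and 208 CPM to 276, 262 and 262 CPM (0.35 ± 0.04, adjusted p = 0.000395), and in Fgr, a SRC family kinase of myeloid cells, which went from 0.126, 0.1 and 0.0251 CPM to 1.03, 1.05 and 0.997 CPM (3.61 ± 0.42, adjusted p = 0.000677). Fgr passed the filter on low counts through the 16x libraries alone, so its rise is no support for the list. Lyn, the main SRC family kinase of this line by count, was not called (143 to 146 CPM at 1x and 149 to 154 CPM at 16x, adjusted p = 0.223). Without 16x B, 6 of the list rose and 5 fell. Without 16x A, 6 fell, and without 1x A, 1 fell.

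Of 44 receptor tyrosine kinases listed, 9 had enough counts, of which 2 rose and 2 fell. The shares were 22.2% each, against 5.75% and 4.54% of all genes tested. Tyro3, a receptor of the TAM family, rose from 6.2, 5.91 and 5.24 CPM to 11.8, 11.8 and 10.8 CPM (log2 change 0.98 ± 0.1, adjusted p = 0.000337), while the drug-free libraries held 4.98 to 6.72 CPM. Egfr rose at a level under 1 CPM (lost without 1x A or 1x B), and Insr and Ryk fell (Insr lost without 1x A or 1x C). Egfr passed the filter on low counts through the 16x libraries alone, so its rise is no support for the list. Without 1x A or 1x B, 1 rose, and without 1x A or 1x C, 1 fell. Of 25 tested outputs of the RAS-ERK pathway, 1 rose (Dusp7, 0.2 ± 0.04, adjusted p = 0.00981, and 0.0619 without 1x A) and none fell. The share of higher calls (4%) was near the 5.75% of all genes tested. At an unadjusted p under 0.05, 4 of these outputs rose and 3 fell, and DESeq2 called 3 higher. Without 16x A 3 of them rose and 2 fell, and without 16x B 2 rose and 1 fell. Their summed level was higher in every 16x library than in any 1x library.

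Genes of cell death moved in both directions. Bok, a pro-death member of the BCL2 family, fell from 10.2, 7.86 and 9.08 CPM to 2.84, 1.63 and 1.64 CPM (log2 change -2.14 ± 0.22, adjusted p = 0.000677). The DMSO lines held more than any dasatinib library, at 14.6 and 21.3 CPM. Pmaip1, which encodes the pro-death protein NOXA, fell from 15, 13.4 and 13.3 CPM to 9.62, 7.83 and 8.45 CPM (-0.68 ± 0.1, adjusted p = 0.00202), and Bak1, an effector of mitochondrial death, rose by 0.33 ± 0.05 (adjusted p = 0.00304). Bcl2l11 (BIM) and Bbc3 (PUMA) did not pass the test (0.14 ± 0.05 and -0.21 ± 0.08, adjusted p = 0.0781 and 0.111). Among the survival genes Bcl2l2 rose by 0.21 ± 0.05 (adjusted p = 0.0151, lost without 1x A, 1x B, 1x C or 16x C), and Mcl1, Bcl2l1 and Bcl2 were not called (adjusted p = 0.727, 0.27 and 0.417).

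Most called surface genes of adhesion and migration rose. Of 19 adhesion genes, 6 rose (31.6%, against 5.75% of all genes tested) and Cd44 fell. Itgal, an integrin subunit of leukocytes, stood at 88.5, 91.6 and 89.5 CPM at 1x and at 218, 137 and 180 CPM at 16x (log2 change 0.99 ± 0.19, adjusted p = 0.0464), against 43.4 to 50.1 CPM in the drug-free libraries. Its call was lost without 1x A, 1x B, 1x C or 16x C (0.135 to 0.167) and without the filter on low counts (0.0703). Its partner Itgb2 rose by 0.29 ± 0.05 (adjusted p = 0.00307), their ligand Icam1 by 0.32 ± 0.07 (adjusted p = 0.0135, and 0.0841 without 1x C), and Itgb1 by 0.22 ± 0.04 (adjusted p = 0.00375). Itga6 and Itgb3 rose as well, but lost their calls without 1x A or 1x C, and Itga6 also without 1x B. Cd44 lost its call without 1x A, 1x B, 1x C or 16x C. Without 1x A or 1x C, 3 of the list rose. Of 12 genes for chemokines and trafficking receptors, 4 rose (Ccr1, Ccr2, Ccr6 and P2ry10) and 2 fell (1 without 1x A or 1x B). The shares were 33.3% and 16.7%, against 5.75% and 4.54% of all genes tested. Ccr6 lost its call without 1x A, 1x B or 1x C. P2ry10, a lysophospholipid receptor, went from 21.8, 21.5 and 19.8 CPM to 40.4, 38.3 and 39 CPM (0.9 ± 0.06, adjusted p = 2.39e-05). Cxcr4, which holds precursor B cells in the marrow, fell from 120, 114 and 113 CPM to 90, 97.3 and 84.7 CPM (-0.35 ± 0.05, adjusted p = 0.00193), with 93.5 and 66.5 CPM in the DMSO lines.

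Of the surface genes of pro-B and pre-B cells, 6 of 24 rose and 2 fell (25% and 8.33%, against 5.75% and 4.54% of all genes tested). Cd82, a tetraspanin, went from 15, 16.3 and 17.8 CPM to 41, 35 and 37.3 CPM (log2 change 1.2 ± 0.08, adjusted p = 2.48e-05). Cd2, an adhesion receptor of lymphocytes and of late pro-B cells in mice, went from 144, 152 and 158 CPM to 229, 227 and 242 CPM (0.62 ± 0.04, adjusted p = 2.69e-05). Without 16x A 10 of this list rose, as with DESeq2, and 1 fell without 1x A, 1x B, 1x C or 16x C. Among drug transporters, Abcg2, which exports dasatinib and other drugs, was lower and not higher at 16x, at 14, 11.8 and 12.3 CPM and then 8.88, 6.59 and 4.96 CPM (-0.89 ± 0.2, adjusted p = 0.0307). Of 22 ABC transporters tested, 1 fell (4.55%, near the 4.54% of all genes tested) and 3 rose (13.6%, against 5.75%). Those that rose were Abca7, Abcb4 and Abcc4, by 0.16 to 0.51. These calls did not hold with a library left out. Without 1x A or without 1x C no transporter was called in either direction, and over all genes the number called fell from 1222 to 539 and 553. Without 1x B 1 transporter rose and Abcg2 was lost (0.0732), and without 16x B Abcg2 was lost as well (0.0977). Without 16x C, 2 fell.

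Markers of other cell types were checked, since some of the rising genes belong to them. Of 33 myeloid markers, 10 were tested and 5 rose (Ncf1, Fcgr3, Cybb, Fcgr1 and Mrc1). That is 50% of those tested, against 5.75% of all genes tested, and none was called lower. The myeloid list summed to 203 to 215 CPM at 1x, 266 to 284 CPM at 16x, and 304 CPM at DMSO 16x. Of the other 23, 11 had no count in any of the 6 libraries, among them Mpo, Elane, Ctsg, Csf3r, Cebpa, S100a8 and S100a9, which define granulocytes and their precursors, and no other exceeded 0.39 CPM. Csf1r, the macrophage growth factor receptor, went from 1 count at 1x to 30 at 16x, too few to be tested. Lyz2, a lysozyme of myeloid cells, was not called (3.07 to 7.76 CPM at both steps, adjusted p = 0.651). Of 23 T cell markers, 10 were tested, and Cd28 and Cd2 rose while Zap70 fell (lost without 1x A or 1x B). The shares were 20% higher and 10% lower, against 5.75% and 4.54% of all genes tested. Without 16x A, 3 fell. Cd28, a T cell co-stimulatory receptor, went from 8.53, 8.66 and 9.51 CPM to 21.1, 23.3 and 20.2 CPM (log2 change 1.27 ± 0.08, adjusted p = 2.48e-05). The list summed to 282 to 291 CPM at 1x and 381 to 385 CPM at 16x. Cd4, Cd7, Cd8b1 and Thy1 had no count, and Cd3e, Cd3d and Cd3g had at most 2 counts in either step. Gata3, a T cell transcription factor, had 4 counts at 1x and 25 at 16x. Tcrg, a T cell receptor gamma locus that also rearranges in B-lineage leukaemia, rose by 1.12 ± 0.19 (adjusted p = 0.0348, lost without 1x A, 1x B, 1x C, 16x B or 16x C).

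Of 26 erythroid and megakaryocytic markers, 13 were tested, 3 rose and 2 fell (Gypc and Tfrc). The shares were 23.1% higher and 15.4% lower, against 5.75% and 4.54% of all genes tested. Hbb-b1, an adult beta globin, went from 3.84, 4.23 and 3.49 CPM to 26.3, 24.5 and 16.1 CPM (log2 change 2.53 ± 0.21, adjusted p = 0.000756), and the embryonic Hbb-bh1 from 0.441, 0.451 and 0.251 CPM to 3.24, 3.95 and 2.59 CPM (3.1 ± 0.28, adjusted p = 0.000162). Globin genes are close copies, so reads may be split. Hba-a2 had 6 and 4 counts in the 2 steps and Gata1 7 and 9. In the DMSO lines Hbb-b1 was at 11.2 and 34.4 CPM and Hbb-bh1 at 10.2 and 31 CPM. The list summed to 1070 to 1120 CPM at 1x and 1010 to 1060 CPM at 16x. The count of lower genes in it was 0 without 1x A and without 1x C. Of 13 tested mature B and plasma cell markers 5 rose (38.5%, against 5.75% of all genes tested), among them Cr2, Xbp1, Igj and Ell2. Sdc1 (CD138) was lower at 16x without passing the test (adjusted p = 0.0754). In this list 3 rose without 1x A, 1x B, 1x C or 16x B. Cr2 lost its call without any one of those 4 libraries and without the filter on low counts. No gene of the list was called lower by edgeR, but 3 were with limma-voom and without 16x B, 2 with DESeq2 and without robust estimation, and 1 without 16x C. Their list summed to 630 to 662 CPM at 1x and 569 to 744 CPM at 16x. None of the 4 stromal markers tested was called by edgeR or limma-voom (2 higher with DESeq2 and at an unadjusted p under 0.05). That list summed to 540 to 584 CPM at 1x and 636 to 768 CPM at 16x. The part of other cell types in these results was not tested.

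The remaining lists differed in their share of calls. None of 77 tested ribosomal protein genes was called by edgeR, DESeq2 or limma-voom (1 higher at an unadjusted p under 0.05), and 4 rose without 1x B. Of 75 oxidative phosphorylation genes Ndufa8 alone rose (0.16 ± 0.04, adjusted p = 0.0267, lost without 1x A, 1x C or 16x C), and 3 rose without 1x B and 2 without 16x B. Of 38 genes of amino acid stress, 5 rose and 1 fell (13.2% and 2.63%, against 5.75% and 4.54% of all genes tested), at a median of 0.07. In that list 1 rose without 1x A, 2 without 1x C and 9 without 16x B. Of 29 lysosome genes, 6 rose (20.7%, against 5.75% of all genes) and 1 fell, at a median of 0.03. Ctsh, a cathepsin, went from 0.157, 0.375 and 0.251 CPM to 1.84, 1.88 and 2.42 CPM (2.93 ± 0.32, adjusted p = 0.000425), and was at 4.97 and 10.2 CPM in the DMSO lines. Ctsh needed the 16x libraries to pass the filter on low counts, so its rise is no support for the list. Of the lysosome genes 3 rose without 1x A and without 1x C. Hmox1, haem oxygenase, rose from 7.65, 8.24 and 7.15 CPM to 13.1, 10.9 and 11.3 CPM (0.61 ± 0.1, adjusted p = 0.00469) while all drug-free libraries held 2.55 to 3.32 CPM.

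Regulators of transcription and of mRNA decay moved in both directions. Jund, an AP-1 subunit, rose from 283, 284 and 285 CPM to 407, 354 and 370 CPM (log2 change 0.41 ± 0.05, adjusted p = 0.00072). Of 25 genes of mRNA decay, 2 rose and 3 fell (8% and 12%, against 5.75% and 4.54% of all genes tested). Zfp36, which destabilises cytokine mRNAs, fell from 30.2, 30.2 and 32.4 CPM to 21.8, 24.4 and 21.5 CPM (-0.46 ± 0.06, adjusted p = 0.0018), whereas its relative Zfp36l1 rose from 59.7, 59.3 and 62.7 CPM to 73.3, 74.1 and 77 CPM (0.3 ± 0.04, adjusted p = 0.00128). Without 16x B, 7 of this list fell. The drug-free libraries held 31.2 to 34.1 CPM of Zfp36. Of 23 genes of the unfolded protein response, 2 rose (8.7%, against 5.75% of all genes tested). They were Atf6 and Xbp1, transcription factors of that response, by 0.31 ± 0.04 and 0.43 ± 0.06 (adjusted p = 0.00072 and 0.00477). Both were higher at DMSO 16x than at DMSO 1x (Atf6 201 against 145 CPM, Xbp1 219 against 143 CPM), and 5 of the list rose without 16x B. Ftl1, the light chain of the iron store ferritin, rose from 962, 983 and 927 CPM to 1180, 1070 and 1160 CPM (0.25 ± 0.04, adjusted p = 0.00528), above the 440 to 634 CPM of the drug-free libraries. Of 29 genes of iron and haem, 2 rose and 1 fell (6.9% and 3.45%, near the 5.75% and 4.54% of all genes tested).

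The 16x libraries differed more among themselves than the 1x libraries did. The biological coefficient of variation, the spread between libraries beyond counting error, was 4.56% within 1x and 12.1% within 16x. Of 8109 genes with a mean of at least 10 CPM, 0 to 5 differed by 2-fold or more between any 2 of the 1x libraries, 26 to 48 between any 2 of the 16x libraries, and 63 to 91 between a 1x and a 16x library. By a rule chosen after seeing the data, a gene stood apart in 1 library where it was at least 4-fold from both others of its step, which lay within 1.5-fold of each other, with at least 5 CPM in its highest library. Library 16x A had 6 such genes higher and 5 lower, 16x B 1 and 3, and 16x C 0 and 4. At 1x, B had 6 higher, among them Rpph1 and the histone genes Hist1h1a, Hist1h1b and Hist1h1d, and A and C had none.

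Pctp, which carries phosphatidylcholine, stood at 14.6 and 17.6 CPM in 16x A and B and had no count in C, against 11.7 to 12.5 CPM in the 1x libraries. Cul9, a cullin that binds p53, was likewise at 7.19 and 5.07 CPM and then 0 in C. Igf2r, the receptor that clears insulin-like growth factor II and sorts lysosomal enzymes, was at 72.2 and 76.3 CPM in A and B and at 15.8 CPM in C. These genes were at or near 0 or low in library C and not in the other 16x libraries.

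Acaa1a, a peroxisomal thiolase, was at 0.809 CPM in 16x A and at 15.6 and 16.1 CPM in B and C, and Pepd, a dipeptidase, at 4.48 CPM in A and 18.2 and 20.8 CPM in B and C. Kctd15 and Rcbtb1 were low in B alone, at 1.32 and 0.707 CPM against 10.3 to 13.3 CPM in A and C. Ddc, which makes dopamine and serotonin, was at 17.8 CPM in A and at 3.2 and 3.23 CPM in B and C. Vldlr, a lipoprotein receptor, was at 27.7 CPM in A and at 2.05 and 1.9 CPM in B and C, against 12 to 17.4 CPM at 1x. Wnt10a, a Wnt ligand, was higher in every 16x library, but to different degrees (10, 40.3 and 83 CPM against 2.55 to 4.77 CPM), and did not pass the test (log2 change 3.53 ± 0.97, adjusted p = 0.119).

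**Figure D5:**
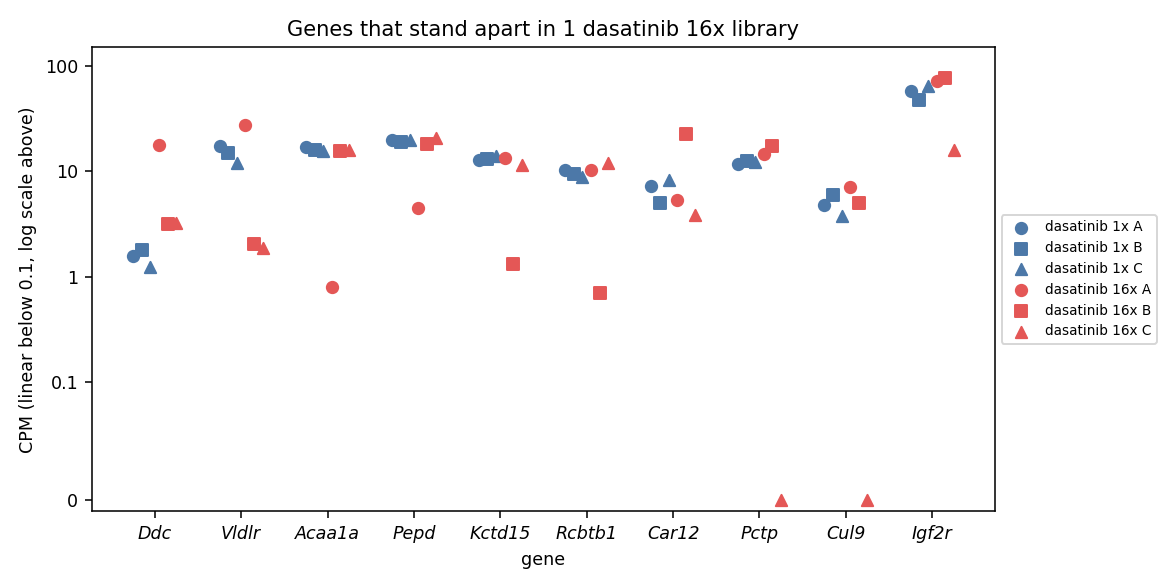
CPM of 10 genes that stand apart in 1 of the 3 dasatinib 16x libraries, with the dasatinib 1x libraries beside them (axis linear below 0.1 and on a log scale above). The 1x points of each gene lie close together, whereas Pctp and Cul9 are at 0 in 16x C, and Acaa1a (0.809 CPM) and Rcbtb1 (0.707 CPM) are low in 16x A and 16x B.

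The step from DMSO 1x to DMSO 16x shares no library with the 6 and gives a view of the same genes over the same dose labels without drug, with 1 library each and hence no test. The median DMSO step was 0.16 on the log2 scale for genes called higher under dasatinib, -0.15 for genes called lower and 0 for all genes. Of the 683 higher genes, 58 (8.49%) were at least 2-fold higher in the DMSO step, as were 1.89% of all genes tested. Of the 539 lower genes, 55 (10.2%) were at least 2-fold lower in it, as were 3.6% of all genes. Of the genes described above, Ccr2, Zbtb32, Lat2 and Ccnd1 were higher at the later step in both settings, and Rragd, Nkd2, Il7r and Rnf130 were lower in both. Socs1, Tyro3 and Hmox1 rose under dasatinib and stood lower in all 4 drug-free libraries than in any dasatinib 16x library.

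By chromosome, the median log2 change of the 10985 genes that could be placed lay between -0.03 and 0.02. The share called higher ran from 4.24% on chromosome 18 to 8.11% on chromosome 19, against 5.75% of all genes tested. The share called lower ran from 2.67% on chromosome 14 to 7.07% on chromosome 18, against 4.54%. Others came close to these ends, such as chromosome 17 with 8.06% higher and chromosome 1 with 6.75% lower. The chromosomes named were chosen after the shares were seen. Whether a chromosome as a whole was higher or lower was not tested, and medians over all libraries could miss a change in some of the cultures or cells.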

How the data were processed

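RNA-seq was done on 10 libraries (TruSeq, per the labels' protocols), of which 6 were compared here. The authors deposited a table of raw counts per gene. Per the submitters' processing notes, CASAVA 1.7.0, Trimmomatic 0.33, TopHat2 2.0.12, BWA 0.7.10, SAMtools and HTSeq 0.6.1 were used with mm9, and DESeq is named. Whether strand was used in counting is not given in the sources used here. Overlapping and antisense genes therefore cannot be told apart, and close copies may share reads.

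Counts were fitted in R 4.3.3 with edgeR 4.0.16 (filterByExpr at a minimum count of 10, TMM, robust quasi-likelihood test, Benjamini-Hochberg adjustment at 0.05). Of 29955 genes, 17681 had a count in the 6 libraries and 11875 were tested. Genes near 0 at 1 step, such as Fgr, Oas3 and Runx2, passed the filter through the other step alone. Their being tested is no support for a change. Spread between replicates (biological coefficient of variation) came to 8.48%, with 4 residual degrees of freedom, and TMM factors were 0.994 to 1.01. SE is the log2 change divided by the square root of F. CPM for the drug-free libraries use the same scale. A fold against 0 counts uses a floor of 3 counts over the group, and ratios with 1 to 3 counts have a 95% interval. Both cover counting error only. The DMSO step uses log2 CPM with a prior count of 2.

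Alternatives were RLE and upper quartile scaling, no filter, DESeq2 1.42.0, limma-voom (limma 3.58.1), no robust estimation, the replicate letter as a block, all 10 libraries, and each library left out. Genes were named by a rule: the 10 highest and 10 lowest called log2 changes at 5 CPM or more without overlap, the 6 largest rises and falls in CPM, the 2 called members of each list with the smallest p, Abl1 and Bcr, and the 8 genes per step that differ most between its libraries. The text describes part of these, and other list members and single genes it names were chosen after their values were seen. The members and the 45 gene lists, written from general knowledge, were chosen with earlier results of these data known, so no list is independent support. Promoters (250 bases before the start) and chromosomes come from RefSeq on GRCm38.p6, matched by symbol, and serve to describe genes counted on mm9. The script was checked on simulated counts.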

Additional observations from a re-analysis of the deposited data

Results flagged for a closer look

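Gpr12, an orphan receptor called higher at dasatinib 16x, stood at 2.32 CPM in DMSO 1x and 0.911 CPM in DMSO 16x, a log2 step of -1.3. It was raised for a closer look because the dasatinib and DMSO lines differ in opposite directions. The difference between the settings was not tested, since each DMSO step has 1 library.

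The same opposite direction was met by 22 of the genes called higher under dasatinib (3.22%), which were at least 2-fold lower in the DMSO step, and by 2 of the genes called lower (0.371%), which were at least 2-fold higher in it. Over all genes tested, 3.6% were at least 2-fold lower in the DMSO step and 1.89% at least 2-fold higher, so both shares lie below that background. None of these differences was tested. Fut4, a fucosyltransferase, stood at 18.3, 18 and 17.4 CPM in dasatinib 1x A, B and C and at 25, 24.5 and 25.5 CPM at 16x (log2 change 0.48, adjusted p = 0.000671 in edgeR's test), whereas DMSO 1x held 7.48 CPM and DMSO 16x 0.348 CPM. P2ry13, a nucleotide receptor, stood at 8.06, 7.81 and 6.45 CPM and then at 19, 14.5 and 12.6 CPM, with 8.77 and 2.04 CPM in the DMSO lines. Grb7, an adaptor of receptor kinases, fell from 10.5, 12.1 and 9.23 CPM to 6.71, 5.44 and 4.51 CPM, with 15.9 and 43.5 CPM in the DMSO lines.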

How the results depend on the processing

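Other scalings, tools and filters kept the number of called genes within 1.5 times of 1222: 1224 with RLE scaling, 1225 with upper quartile scaling, 1444 without the filter, 1500 with DESeq2, 1134 with limma-voom, 1206 without robust estimation and 1686 with all 10 libraries. Leaving out a library gave 539 to 1502 called, 326 to 798 higher and 200 to 727 lower genes. With the replicate letter as a block (replicate block), 1124 genes were called, of which 993 were also called without it. The labels do not say whether a letter pairs a 1x with a 16x library. Deviations of same-letter libraries correlated at 0.076, 0.046 and 0.046, and those of other pairs at -0.062 to 0.01. All these correlations were weak, though each library correlated best with its own letter. Whether the letters mark pairs was not tested. Of 103 called genes named by the rule or as lost or gained, 76 kept their call under every alternative and 27 lost it under at least one, 20 of them only with a library left out. Of the genes that differ most within a step, 8 that were not called changed sign. With a library left out, their log2 changes ran from -1.96 to 0 for Mir715 (0 without 1x B), from -1.29 to 0.01 for Lars2 (0.01 without 1x B), from -0.31 to 0.15 for Micall2 (0.15 without 1x B, 0.04 without 16x A, 0 without 16x B), from -0.72 to 0.41 for Pctp (0.41 without 16x C, called at an adjusted p of 0.0367), from -0.2 to 1.4 for App (-0.2 without 16x C), from -2.9 to 0.02 for Vldlr (0.01 without 16x B, 0.02 without 16x C, and called without 16x A at 4.12e-06), from -0.01 to 0.9 for Nid2 (-0.01 without 16x C) and from -0.14 to 0.72 for Capn5 (-0.14 without 16x B, -0.11 without 16x C, and called without 16x A at 0.00185). With limma-voom it was -0.23 for Nid2 and -0.37 for Capn5, and Capn5 was at -0.12 with the replicate block. The cause was not tested. Genes under 1 CPM are limited by depth, since 1 count is worth 0.0219 to 0.0315 CPM.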
